A study of Mus musculus with 12 samples.

Results

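The Schlafen family was followed through preosteoclasts grown from the bone marrow of mice with and without LSD1, a histone demethylase encoded by Kdm1a. Its members were taken by symbol, as Slfn1, Slfn2, Slfn3, Slfn4, Slfn5, Slfn8 and Slfn9, which are 7 of the 57010 genes in the count table, and all 7 were among the 15425 genes with enough reads to test. The table has 12 rows with a Slfn symbol. Of the other 5, Slfn14 had 0 to 3 counts per library, 1 row of the pseudogene Slfn10-ps had 2.75 to 6.29 CPM (counts scaled to a library total of 1000000), and the remaining 3 (Slfn5os, Slfnl1 and the other Slfn10-ps row) had 0 counts in every library.

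RNA was sequenced from 12 cultures in 6 conditions with 2 libraries each. Control mice (LSD1WT) and mice that lose LSD1 under the LysM-Cre driver, active in macrophages, osteoclast precursors and neutrophils (LSD1cKO), were female and 2 months old by the study's design text, although the sequencing methods give another age. In ligated mice a silk suture around the upper molars had provoked periodontitis for 7 days, and mandible and femur marrow came from such mice, while a further set of femur cultures came from unligated mice. All marrow was cultured for 2 days with M-CSF, which sustains the precursors, and RANKL, which starts their conversion to osteoclasts. The 12 libraries came from 9 mice, 5 LSD1WT and 4 LSD1cKO, since LSD1WT mouse 1L and LSD1cKO mice 1L and 2L each gave a mandible and a femur culture. No unligated mandible culture is among these libraries, so the site comparison was made in ligated mice and the ligature comparison in femur.

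Schlafen proteins restrain cell division and are named after the German word for sleep, because the first of them were described as holding thymocytes in a quiescent state. Mouse members fall into short proteins (Slfn1, Slfn2), intermediate ones (Slfn3, Slfn4) and long ones that carry an additional helicase-like part (Slfn5, Slfn8, Slfn9 and Slfn14). They lie in one cluster, and many of them are induced by type I interferon, which acts through the receptor chains Ifnar1 and Ifnar2, the kinases Jak1 and Tyk2, and transcription factors that include Stat2 and Irf9. These factors bind the interferon-stimulated response element (ISRE). In the monocyte and macrophage lineage from which osteoclasts arise, Slfn2 is needed for the cells to survive and respond normally, and Slfn4 is known to fall as marrow precursors mature and to rise again on inflammatory activation.

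The proximal promoters are shown because they hold short stretches in common, among them those of Slfn8 and Slfn9, whose levels differed in pattern. All 7 members were matched to RefSeq promoters (build GRCm38.p6, not the build of the counts), and the 160 bases before each annotated start are printed on the gene's strand. Capitals in the long members mark the letters GAAA, any 2 bases and GAAA again, the core of an ISRE, searched on both strands. Capitals in the short and intermediate members mark ACTTCCTGG, a run found in all 4 and chosen after the sequences had been seen.
Slfn5 (chr11:82951942-82952101, plus strand): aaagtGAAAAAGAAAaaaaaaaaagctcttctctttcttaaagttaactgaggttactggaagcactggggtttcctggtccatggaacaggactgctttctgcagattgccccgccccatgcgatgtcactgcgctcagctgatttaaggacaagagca
Slfn8 (chr11:83020811-83020970, minus strand): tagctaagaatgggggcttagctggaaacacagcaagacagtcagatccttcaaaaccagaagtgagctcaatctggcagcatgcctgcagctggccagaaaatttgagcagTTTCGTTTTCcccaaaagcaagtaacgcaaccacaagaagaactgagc
Slfn9 (chr11:82991831-82991990, minus strand): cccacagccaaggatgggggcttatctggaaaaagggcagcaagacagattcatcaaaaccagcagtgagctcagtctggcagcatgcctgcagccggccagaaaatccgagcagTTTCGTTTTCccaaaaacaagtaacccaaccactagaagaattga
Slfn1 (chr11:83116660-83116819, plus strand): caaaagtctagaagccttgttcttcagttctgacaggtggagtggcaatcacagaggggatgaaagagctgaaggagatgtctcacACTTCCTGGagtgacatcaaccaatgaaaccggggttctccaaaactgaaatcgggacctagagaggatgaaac
Slfn2 (chr11:83064952-83065111, plus strand): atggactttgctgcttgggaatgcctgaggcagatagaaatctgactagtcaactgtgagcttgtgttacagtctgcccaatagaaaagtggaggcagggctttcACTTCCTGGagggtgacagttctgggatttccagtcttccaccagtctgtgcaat
Slfn3 (chr11:83191170-83191329, plus strand): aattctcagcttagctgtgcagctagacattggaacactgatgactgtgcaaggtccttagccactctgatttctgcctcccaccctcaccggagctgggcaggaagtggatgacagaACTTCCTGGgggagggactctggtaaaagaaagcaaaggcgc
Slfn4 (chr11:83175026-83175185, plus strand): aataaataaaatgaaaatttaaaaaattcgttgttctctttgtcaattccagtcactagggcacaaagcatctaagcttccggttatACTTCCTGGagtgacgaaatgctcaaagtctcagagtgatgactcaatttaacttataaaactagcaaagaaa
The ISRE letters, 10 bases long, lay 48 to 39 bases before the start of Slfn8 and 45 to 36 bases before that of Slfn9, as TTTCGTTTTC, which is GAAAACGAAA on the other strand. In Slfn5 they lay farther out, 155 to 146 bases before the start, as GAAAAAGAAA. A further annotated start of Slfn8, not printed, has the same letters 136 to 127 bases before it. They occurred in 2.98% of 32851 RefSeq promoter windows, each the 250 bases before a start, and in none of the windows of Slfn1, Slfn2, Slfn3 and Slfn4. Bases after the starts were not searched. The run ACTTCCTGG began 74, 55, 42 and 73 bases before the starts of Slfn1, Slfn2, Slfn3 and Slfn4 and was in 0.700% of all windows. The windows of Slfn8 and Slfn9 were identical at 206 of 242 aligned bases (85.1%). A match is a description of the letters in these windows, neither a site nor a cause, and a window without one says nothing about a factor.

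Some pairs of members are alike over stretches that a read may not tell apart. The coding sequences of Slfn8 and Slfn9, both 2730 bases long, were identical at 92.7% of aligned bases, and those of Slfn3 and Slfn4 at 92.2%. Of all 50-base words in a member's transcripts, 15.6% in Slfn3, 10.8% in Slfn4, 14.6% in Slfn8 and 11.5% in Slfn9 also occurred in another gene, against 0.606% in Slfn1 and 4.27% in Slfn2. Only part of this lay within the pairs: 7.39% of the words of Slfn3 were shared with Slfn4 and 6.28% of those of Slfn4 with Slfn3, while Slfn8 and Slfn9 shared most with the pseudogene Slfn10-ps (10.1% and 8.10%), of which 1 row was itself counted in every library. How reads from such stretches were divided among these genes was therefore uncertain, and the strand setting of the counting was not given in the sources used here.

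Library totals ran from 21375805 to 32526751 counts (median 26364586), so 3 counts, the most that a true level may give while none is seen, correspond to 0.0927 to 0.154 CPM. Such floors and the counting intervals below cover counting error only. Kdm1a had 61.2 to 71.3 CPM in the 6 LSD1WT libraries and 15.6 to 24.3 CPM in the 6 LSD1cKO libraries, with no overlap (log2 fold change over the 3 cultures -1.82, adjusted p = 3.56e-05, edgeR's quasi-likelihood test). Osteoclast transcripts, summed over 10 marker genes, reached 168 and 238 CPM in replicate 2 of the ligated and of the unligated femur LSD1WT cultures, which is 0.411% and 0.636% of the sum in replicate 1, while the other 10 libraries had 11539 to 40886 CPM. In the same libraries the sum of 10 macrophage markers was 12715 and 10023 CPM, 3.54 and 2.91 times that in replicate 1. These cultures carry the label of preosteoclasts but lacked most osteoclast transcripts, so for the members, the interferon list and the marker lists the numbers of calls without these libraries stand below beside those with them. Leaving them out, an alternative chosen after the data were seen, also raised the share of all genes called, which is given beside each count. Mandible LSD1WT replicate 3 is a mandible culture by its title and a femur culture by its library name and count column, and it was taken by its title. Mandible and femur cultures of a shared mouse were not independent, and the labels do not establish independence for the rest. The main fits had no term for the mouse and treated all 12 libraries as separate units. Their p-values therefore measure only the spread between these libraries. In bulk RNA, fewer cells of a type and less RNA per cell cannot be told apart.

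Per kilobase of exon (GENCODE vM21 models), Slfn2 was the most abundant member in all 6 conditions, with 78.8 to 371 CPM per kb over the 12 libraries. Slfn5 came second in the 4 femur conditions, with 10.4 to 95.7 CPM per kb there, and ranked lower in the mandible, where it had 1.58 to 12.3 CPM per kb. Slfn9 was second in both mandible conditions and varied least of the long members, from 3.89 to 15.3 CPM per kb over all libraries. Slfn8 (1.02 to 25.4 CPM per kb) and Slfn1 (0 to 18.5 CPM per kb) ranked higher in femur than in mandible LSD1cKO cultures, whereas Slfn3 (1.56 to 6.204 CPM per kb) went from rank 3 in mandible LSD1WT to rank 7 in unligated femur LSD1cKO. Slfn4 had 0.00925 to 8.80 CPM per kb and ranked last or next to last throughout. Summed over the 7 members, the family went from 183 and 188 CPM in the mandible LSD1WT libraries to 1308 and 1443 CPM in the ligated femur LSD1cKO libraries, and Slfn2 made up 31.1% to 71.9% of the sum.

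**Figure D1:**
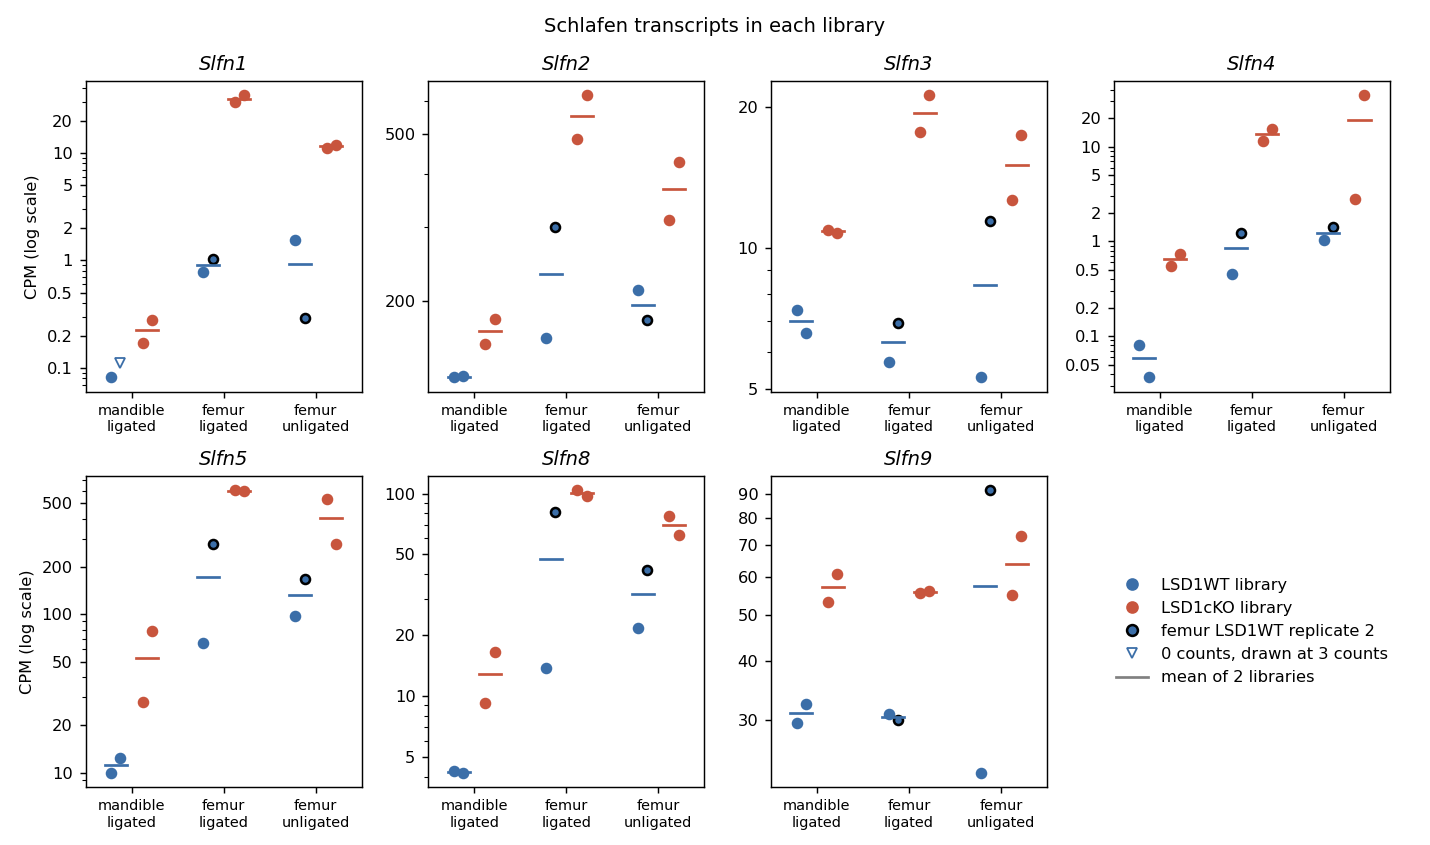
Each panel plots 1 Schlafen member, with CPM on a log axis and the 3 cultures along the horizontal axis. Points are the 12 libraries (LSD1WT blue, LSD1cKO red), bars are means of 2 libraries, black rings mark replicate 2 of the femur LSD1WT cultures, and the open triangle is a library with 0 counts drawn at 3 counts, beside which no mean is drawn. In each culture both LSD1cKO points lie above both LSD1WT points, except for Slfn9 in unligated femur, where 1 LSD1WT library reached 91.5 CPM.

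With LSD1 deleted, 5 of the 7 members rose over the 3 cultures: Slfn1, Slfn4, Slfn5, Slfn3 and Slfn2. The share of all tested genes that rose by the same rule, a Benjamini-Hochberg adjusted p under 0.05 in the quasi-likelihood test of edgeR, was 3.00%. At an unadjusted p under 0.05, all 7 members were higher, against 8.31% of all genes. In 6 members, all but Slfn9, both LSD1cKO libraries exceeded both LSD1WT libraries in each of the 3 cultures, against 5.17% of all genes. On the log2 scale the members' median difference was 1.27, and that of all genes was -0.06.

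Slfn1 is the short member for which growth arrest of T cells was first described. In the ligated femur it had 0.776 and 1.03 CPM in the LSD1WT libraries and 29.8 and 34.6 CPM in the LSD1cKO libraries. The unligated femur gave 1.56 and 0.290 CPM in LSD1WT and 11.04 and 11.98 CPM in LSD1cKO. In the mandible it was close to undetected, with 2 and 0 counts in LSD1WT and 5 and 9 counts in LSD1cKO, or 0.0816, 0, 0.172 and 0.278 CPM. The groups did not overlap in any culture, and only the 4 femur LSD1cKO libraries exceeded 2 CPM. Condition means ran from the ligated femur LSD1cKO cultures (32.2 ± 3.40 CPM, SD, n = 2) to the unligated ones (11.5 ± 0.663 CPM), whereas the LSD1WT femur cultures, at 0.901 ± 0.177 and 0.927 ± 0.901 CPM, did not differ beyond their spread. Over the 3 cultures Slfn1 rose by a log2 fold change of 4.18 (SE 0.56, 95% interval 2.95 to 5.41), an 18.1-fold difference (edgeR's quasi-likelihood test, Benjamini-Hochberg adjusted p = 0.00386). In the mandible alone the 14 against 2 counts gave a ratio of 5.89 with an exact counting interval of 1.35 to 53.4.

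Slfn2, the other short member, keeps T cells and monocytes out of a premature activated state and protects transfer RNAs. It was the highest member in every condition per kilobase of exon. The mandible libraries had 131.2 and 131.9 CPM in LSD1WT and 157.4 and 180.4 CPM in LSD1cKO. The ligated femur had 162.7 and 299.2 CPM in LSD1WT and 484.8 and 618.2 CPM in LSD1cKO. The unligated femur had 211.6 and 179.9 CPM against 312.0 and 427.3 CPM. The genotypes did not overlap within a culture, but 1 of the mandible LSD1cKO libraries lay below all 4 femur LSD1WT libraries and the other lay among them. Means went from 551 ± 94.3 CPM in ligated femur LSD1cKO, through 369.6 ± 81.5 CPM in unligated femur LSD1cKO, to 132 ± 0.481 CPM in mandible LSD1WT, and the LSD1WT femur cultures and the mandible LSD1cKO culture overlapped in between. Slfn2 rose over the 3 cultures by 0.85 on the log2 scale (SE 0.20, interval 0.41 to 1.28; 1.80-fold; edgeR's quasi-likelihood test, Benjamini-Hochberg adjusted p = 0.0448). This call was lost in 10 of the 12 fits that left out 1 library, all but those without mandible LSD1cKO replicate 1 or ligated femur LSD1WT replicate 1, with adjusted p of up to 0.0992 by the same test. It was also lost with the conflicting mandible library taken as femur (adjusted p = 0.0533) and with a block for the replicate number (adjusted p = 0.0780), again in edgeR's test.

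Slfn3, an intermediate member known from T cells and from gut epithelium, had a narrow range. It had 7.38 and 6.60 CPM in mandible LSD1WT and 10.95 and 10.78 CPM in mandible LSD1cKO. In ligated femur it had 5.72 and 6.92 CPM against 17.68 and 21.16 CPM. In unligated femur it had 5.30 and 11.42 CPM against 12.68 and 17.40 CPM. Every LSD1cKO library exceeded every LSD1WT library of its own culture, and only 1 LSD1WT library, unligated femur replicate 2, entered the LSD1cKO range at all. The 3 LSD1cKO means (19.4 ± 2.47, 15.0 ± 3.34 and 10.9 ± 0.121 CPM for ligated femur, unligated femur and mandible) stood in order without overlap, whereas the 3 LSD1WT means of 6.32 to 8.36 CPM overlapped. The rise over the 3 cultures was 1.03 on the log2 scale (SE 0.23, interval 0.53 to 1.54; 2.04-fold; edgeR's quasi-likelihood test, Benjamini-Hochberg adjusted p = 0.0350). It was lost in 8 of the 12 fits with 1 library left out, with adjusted p of up to 0.0731 by the same test. The call held without mandible LSD1WT replicate 1, either unligated femur LSD1WT library or unligated femur LSD1cKO replicate 1. With a block for the replicate number it was lost too (adjusted p = 0.0654, edgeR).

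Slfn4, the intermediate member tied to myeloid activation, was the scarcest member per kilobase in LSD1WT cultures. It had 2 and 1 counts in mandible LSD1WT and 16 and 24 counts in mandible LSD1cKO, or 0.0816, 0.0367, 0.549 and 0.741 CPM. In ligated femur it had 0.453 and 1.23 CPM in LSD1WT and 11.50 and 15.51 CPM in LSD1cKO. In unligated femur it had 1.03 and 1.41 CPM in LSD1WT and 2.81 and 34.88 CPM in LSD1cKO. The genotypes did not overlap in any culture, but the unligated LSD1cKO libraries stood far apart from each other. The log2 fold change over the 3 cultures was 3.88 (SE 0.59, interval 2.59 to 5.18; 14.8-fold; edgeR's quasi-likelihood test, Benjamini-Hochberg adjusted p = 0.00608). Without unligated femur LSD1cKO replicate 2, the library with 34.88 CPM, it was 3.18 over the 3 cultures, and in unligated femur it was 1.25 in place of 3.95. In the mandible the 40 against 3 counts gave a ratio of 11.2 with a counting interval of 3.58 to 56.7. Over the 12 libraries the Pearson r of log2 CPM between Slfn4 and its near copy Slfn3 was 0.806, a description. The split of reads from the stretches that they share is uncertain.

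Slfn5, a long member found in the nucleus, had the widest range of the abundant members. It had 9.99 and 12.36 CPM in mandible LSD1WT and 27.94 and 77.90 CPM in mandible LSD1cKO. In ligated femur it had 65.55 and 279.07 CPM against 605.25 and 600.12 CPM. In unligated femur it had 97.96 and 168.01 CPM against 531.98 and 275.56 CPM. The genotypes did not overlap within a culture, and both mandible LSD1WT libraries lay below all 10 others. The means of ligated femur LSD1cKO (603 ± 3.63 CPM) and unligated femur LSD1cKO (404 ± 181 CPM) did not overlap, whereas the latter reached into the range of ligated femur LSD1WT (172 ± 151 CPM). Slfn5 rose by 1.88 on the log2 scale over the 3 cultures (SE 0.38, interval 1.04 to 2.73; 3.69-fold; edgeR's quasi-likelihood test, Benjamini-Hochberg adjusted p = 0.0241). Of the 12 fits with 1 library left out, 5 lost the call, those without mandible LSD1WT replicate 1 or 3, mandible LSD1cKO replicate 2, ligated femur LSD1cKO replicate 2 or unligated femur LSD1cKO replicate 1, with adjusted p of 0.0503 to 0.0617 by the same test.

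Slfn8 had 4.24 and 4.18 CPM in mandible LSD1WT and 9.27 and 16.49 CPM in mandible LSD1cKO. In ligated femur it had 13.71 and 80.99 CPM against 103.72 and 97.44 CPM. In unligated femur it had 21.60 and 42.05 CPM against 77.15 and 62.24 CPM. Again the genotypes did not overlap within a culture, and in both femur cultures replicate 2 was the LSD1WT library nearest to the LSD1cKO ones. The difference over the 3 cultures was 1.27 on the log2 scale (SE 0.37, interval 0.46 to 2.09) and did not pass the adjusted threshold, with an adjusted p of 0.101 (edgeR's quasi-likelihood test, Benjamini-Hochberg).

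Slfn9, the near copy of Slfn8, had nearly the same means in mandible and ligated femur within each genotype. It had 29.53 and 32.46 CPM in mandible LSD1WT and 53.14 and 61.01 CPM in mandible LSD1cKO. In ligated femur it had 30.84 and 30.00 CPM against 55.67 and 55.99 CPM. In unligated femur it had 23.20 and 91.52 CPM against 54.92 and 73.27 CPM. Outside the unligated femur the 4 LSD1WT libraries lay between 29.5 and 32.5 CPM and the 4 LSD1cKO libraries between 53.14 and 61.01 CPM, in mandible and femur alike, but in unligated femur LSD1WT replicate 2 exceeded every other library. The difference over the 3 cultures was 0.64 (SE 0.28, interval 0.02 to 1.26) with an adjusted p of 0.296 (edgeR's quasi-likelihood test, Benjamini-Hochberg).

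**Figure D2:**
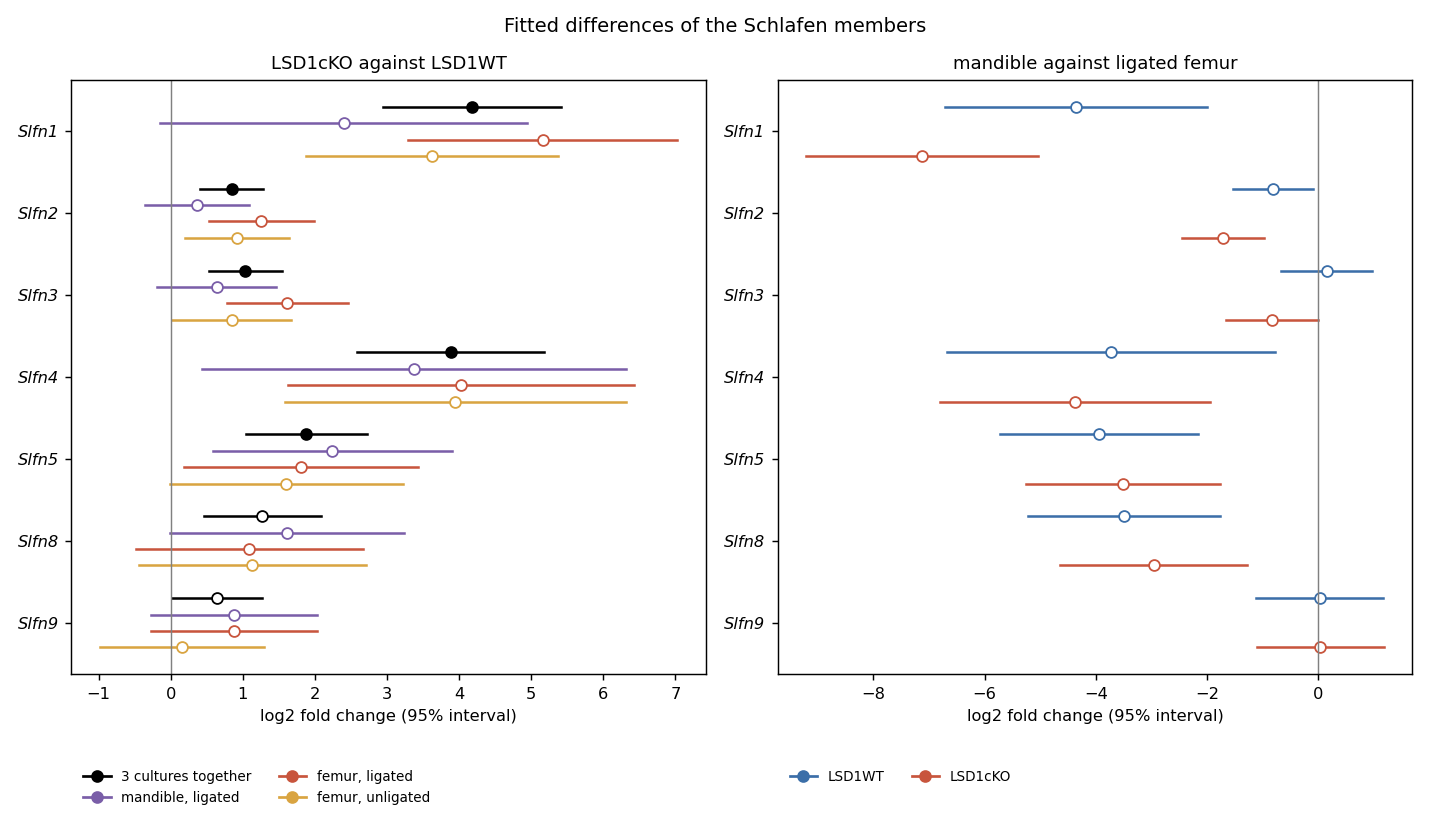
Fitted log2 fold changes (points) and their 95% intervals (lines) are shown for each member, at left LSD1cKO against LSD1WT and at right mandible against ligated femur. Filled points passed an adjusted p of 0.05. In the left panel Slfn1 (4.18) and Slfn4 (3.88) have the highest values over the 3 cultures and Slfn9 (0.64) the lowest. In the right panel Slfn9 sits at 0.03 in both genotypes, while Slfn1, Slfn4, Slfn5 and Slfn8 lie at -2.96 or lower.

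Removing both femur LSD1WT replicate 2 libraries brought all 7 members past the threshold over the 3 cultures, while the share of all genes that rose went from 3.00% to 14.4% of 16008 tested. Slfn8 then had a log2 fold change of 2.03 in place of 1.27 (adjusted p = 0.00031, edgeR's quasi-likelihood test, Benjamini-Hochberg). Slfn9 had 1.08 in place of 0.64 (adjusted p = 0.00026 by the same test). Slfn5 had 2.48 in place of 1.88, and the median of the members became 2.03. Across the single libraries that could be left out, the number of members past the threshold ranged from 2 to 5, and Slfn1 and Slfn4 were among them each time. Only Slfn1 and Slfn4 remained when mandible LSD1WT replicate 3, mandible LSD1cKO replicate 2 or ligated femur LSD1cKO replicate 2 was left out. There were 3 without mandible LSD1WT replicate 1, ligated femur LSD1cKO replicate 1 or either unligated femur LSD1cKO library. Taking mandible LSD1WT replicate 3 as a femur culture also left 3, namely Slfn1, Slfn3 and Slfn4. In these settings the number of all genes past the threshold changed too, as given in the closing section on the processing. Under all 19 alternatives each of the 7 members had a log2 fold change above 0 over the 3 cultures, 133 values in all.

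**Figure D3:**
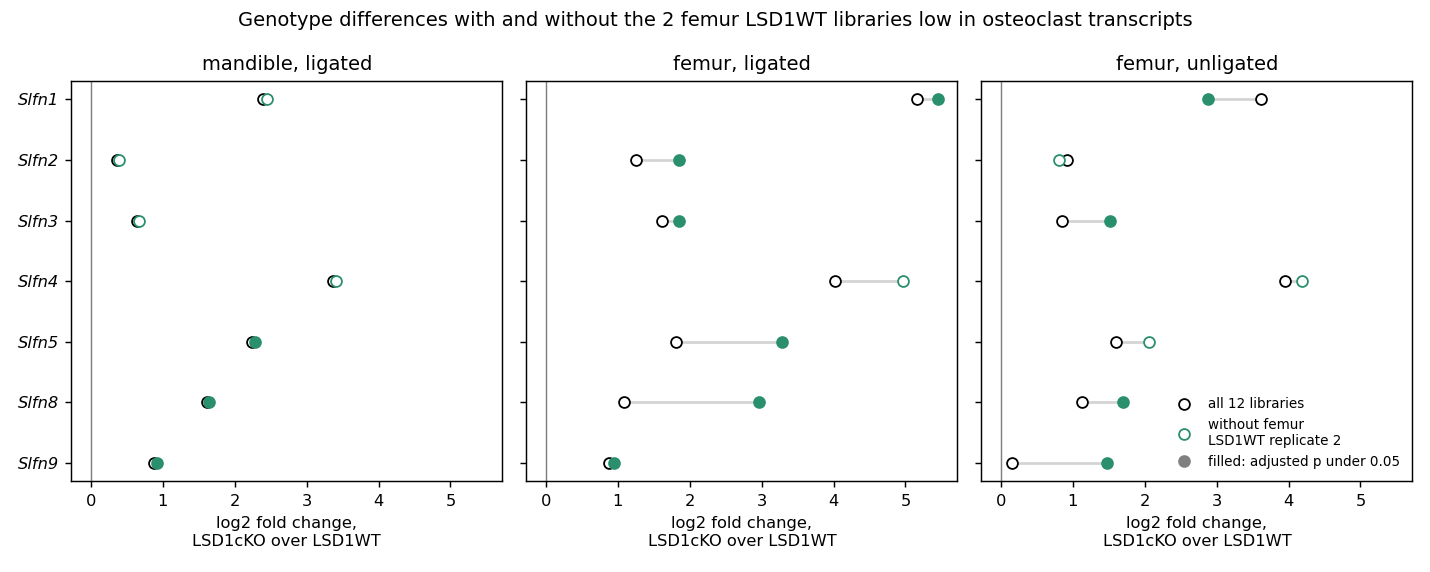
Log2 fold changes of LSD1cKO over LSD1WT are drawn for each member in the 3 cultures, with all 12 libraries (black) and without replicate 2 of both femur LSD1WT cultures (green), where filled points have an adjusted p under 0.05. In ligated femur the value of Slfn8 moves from 1.09 to 2.96 and that of Slfn5 from 1.81 to 3.29, while the mandible values hardly move.

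Within single cultures no member passed the adjusted threshold of edgeR's quasi-likelihood test. In the mandible 0 of 7 passed, as did 0% of all genes. At an unadjusted p under 0.05, Slfn4 and Slfn5 were higher (2 members, against 3.81% of all genes), and all 7 were higher without overlap, which also held for 34.1% of all genes. DESeq2 called 0 members there and found 0.914% of all genes higher. The log2 fold changes were 3.37 for Slfn4 (SE 1.29), 2.40 for Slfn1 (SE 1.11), 2.24 for Slfn5 (SE 0.73) and 0.36 for Slfn2 (SE 0.31), with a median of 1.61 against 0.00 for all genes. That of Slfn1 ran from 1.45 without mandible LSD1WT replicate 3 to 5.64 without replicate 1, the library with 2 counts, after which the fit rests on a library with 0 counts and the value depends on the prior count. Without both femur LSD1WT replicate 2 libraries, which are not in this contrast but enter the shared estimate of spread, Slfn5, Slfn8 and Slfn9 passed, with adjusted p of 0.0407, 0.0139 and 0.0189 by the same test and Benjamini-Hochberg adjustment, while 5.13% of all genes rose. The 10 osteoclast markers were all lower in the LSD1cKO mandible libraries without overlap (median of -0.80 on the log2 scale). Stromal markers there summed to 39.8 and 40.7 CPM in LSD1WT and to 8.20 and 3.12 CPM in LSD1cKO, and the median of the 3 tested was -2.53. All 3 tested B cell markers and both tested T and NK cell markers were higher in mandible LSD1cKO without overlap, with medians of 0.90 and 1.19. These 2 lists summed to at most 1.99 and 1.82 CPM in the mandible libraries. Of 10 macrophage markers 4 were higher without overlap, beside 34.1% of all genes, and 2 were lower, beside 34.8%. The part of these cells in the Schlafen values was not tested. Without the same libraries 4 macrophage markers and 7 of the 23 interferon pathway genes listed below rose in mandible, and 0 osteoclast, B cell, T and NK cell or stromal markers passed.

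In the ligated femur, 0 members passed the adjusted threshold of edgeR's quasi-likelihood test, and 0.00648% of all genes did. At an unadjusted p under 0.05, 5 members were higher, Slfn1, Slfn2, Slfn3, Slfn4 and Slfn5, against 3.91% of all genes. All 7 members were higher without overlap, against 14.8% of all genes. DESeq2 called 4, namely Slfn1, Slfn2, Slfn3 and Slfn4. The ligated femur held the highest log2 fold change of the family, 5.16 for Slfn1 (SE 0.82, interval 3.29 to 7.03), and the median of the members was 1.62 against -0.12 for all genes. DESeq2 found 1.28% of all genes higher there. Without both femur LSD1WT replicate 2 libraries, 6 members rose, all but Slfn4, and 6.89% of all genes did.

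In the unligated femur, 0 members and 0% of all genes passed the adjusted threshold of the same test. At an unadjusted p under 0.05, 4 members were higher, Slfn1, Slfn2, Slfn3 and Slfn4, against 3.61% of all genes, and 6 were higher without overlap, against 9.82%. DESeq2 called Slfn1 and Slfn4 and found 0.767% of all genes higher. Slfn4 (3.95, SE 1.04) and Slfn1 (3.62, SE 0.77) had the highest log2 fold changes, and Slfn9 had 0.16 with an interval of -0.98 to 1.30. The median was 1.13 against -0.05 for all genes. Without both femur LSD1WT replicate 2 libraries, Slfn1, Slfn3, Slfn8 and Slfn9 rose, Slfn9 with a log2 fold change of 1.47, and 2.14% of all genes rose.

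Whether the effect of LSD1 differed between cultures was tested directly. For the mandible minus the ligated femur, 0 members passed at an adjusted p under 0.05 by edgeR (0% of all genes), 0 at an unadjusted p under 0.05 (0.966% of all genes) and 0 by DESeq2. For the ligated minus the unligated femur the numbers were likewise 0 adjusted (0%), 0 unadjusted (0.344% of all genes) and 0 by DESeq2. Slfn1 had the most distant values, -2.76 (SE 1.69) for the first difference and 1.54 (SE 1.01) for the second. A difference in the effect of LSD1 on any member was thus not shown at this spread.

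The site of the marrow went with large differences of 4 members. Mandible cultures had lower levels than ligated femur cultures of Slfn1, Slfn4, Slfn5 and Slfn8 in both genotypes, while Slfn9 had nearly the same means. In LSD1WT the log2 fold changes were -4.36 (SE 1.03) for Slfn1, -3.95 (SE 0.78) for Slfn5, -3.72 (SE 1.29) for Slfn4, -3.49 (SE 0.76) for Slfn8 and -0.81 (SE 0.32) for Slfn2. In LSD1cKO they were -7.12 (SE 0.91) for Slfn1, -4.38 (SE 1.06) for Slfn4, -3.51 (SE 0.76) for Slfn5, -2.96 (SE 0.73) for Slfn8 and -1.71 (SE 0.32) for Slfn2. Slfn3 had 0.15 (SE 0.36) in LSD1WT and -0.84 (SE 0.36) in LSD1cKO. Slfn9 had 0.03 in both, with intervals of -1.12 to 1.17 and -1.11 to 1.17, which leave room for a difference of about 1 log2 unit either way. The medians were -3.49 and -2.96, and those of all genes were -0.03 and -0.004. For the scarce members the raw counts in LSD1WT were 2 in mandible against 44 in femur for Slfn1, a ratio of 0.0443 (counting interval 0.0052 to 0.17), and 3 against 38 for Slfn4, a ratio of 0.0769 (0.0152 to 0.242).

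None of these site differences passed edgeR's adjusted threshold, in LSD1WT (0 of 7 members, 0% of all genes) or in LSD1cKO (0 of 7, 0%). At an unadjusted p under 0.05, 5 members were lower in the LSD1WT mandible against 14.7% of all genes, and 6 in the LSD1cKO mandible against 6.81%. Lower levels without overlap were found for 5 members in LSD1WT, all but Slfn3 and Slfn9, against 31.5% of all genes, and for 6 in LSD1cKO, all but Slfn9, against 35.0%. DESeq2 called 4 and 5 members lower, and 7.84% and 3.24% of all genes. Without both femur LSD1WT replicate 2 libraries, 11.001% of all genes were lower in the LSD1cKO mandible, and 6 members fell there, from Slfn1 (-7.14, adjusted p = 0.00027) to Slfn3 (-0.86, adjusted p = 0.0199; edgeR's quasi-likelihood test, Benjamini-Hochberg). In LSD1WT only Slfn1 then fell (-4.14, adjusted p = 0.0496 by the same test), with a single femur library left and 0.768% of all genes lower, and the difference of Slfn5 shrank to -2.52 and that of Slfn8 to -1.67. The 10 macrophage markers moved in the same direction, all lower in mandible without overlap in both genotypes, with medians of -5.02 in LSD1WT and -2.61 in LSD1cKO. Without the same femur libraries, 3 of them fell in LSD1WT (median -1.96) and 7 in LSD1cKO (median -2.62). Of the 23 interferon pathway genes tested, 22 and 23 were lower in mandible without overlap, with medians of -3.15 and -3.08, and without those libraries 3 and 20 fell. T and NK cell markers summed to 0.734 to 1.82 CPM in the mandible libraries and to 4.11 to 18.3 CPM in the ligated femur ones. The part of these cells and genes in the Schlafen values was not tested.

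Ligature placement went with smaller differences. In LSD1WT femur cultures all 7 members overlapped between ligated and unligated mice. Of all genes, only 5.25% were higher and 3.93% lower without overlap. Each of these groups holds a replicate 2 library low in osteoclast transcripts, so overlap says little here. Of the members 0 passed at an adjusted p under 0.05 by edgeR (0% of all genes), 0 at an unadjusted p under 0.05 (0.765%) and 0 by DESeq2. The log2 fold changes ran from -0.91 (Slfn9, SE 0.50) to 0.57 (Slfn8, SE 0.68), with a median of -0.06 against 0.03 for all genes. Without both replicate 2 libraries, with a single LSD1WT library left in each femur condition, the members' median was -0.63. In LSD1cKO the counts of calls were also 0 adjusted (0%), 0 unadjusted (0.959%) and 0 by DESeq2. There, 5 members, all but Slfn4 and Slfn9, were higher in the ligated femur without overlap, against 14.0% of all genes, led by Slfn1 at 1.48 (SE 0.69, interval -0.09 to 3.05). The median was 0.53 against -0.03. These comparisons, the genotype comparisons and the site comparisons share libraries and are not independent of one another.

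Across the 12 libraries the long members did not move as one. Slfn5 and Slfn8 followed each other, with a Pearson r of log2 CPM of 0.989, while Slfn8 and its near copy Slfn9 had 0.450. The ratio of Slfn8 to Slfn9 counts was 0.129 to 0.270 in the 4 mandible libraries and 0.444 to 2.70 in the 8 femur libraries, without overlap. The ratio of Slfn5 to Slfn8 was 2.36 to 4.72 in mandible and 3.45 to 6.90 in femur, with overlap. Both Slfn8 and Slfn9 hold the ISRE letters in the windows printed above, at nearly the same distance from the start. Among Slfn1, Slfn2, Slfn4, Slfn5 and Slfn8, the 10 pairs had r of 0.861 to 0.989. Slfn9 had 0.322 to 0.5679 with those 5, and Slfn3 and Slfn9 had 0.807 with each other. The points of each correlation share the 12 libraries, their sites and their genotypes, so the values are descriptions.

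**Figure D4:**
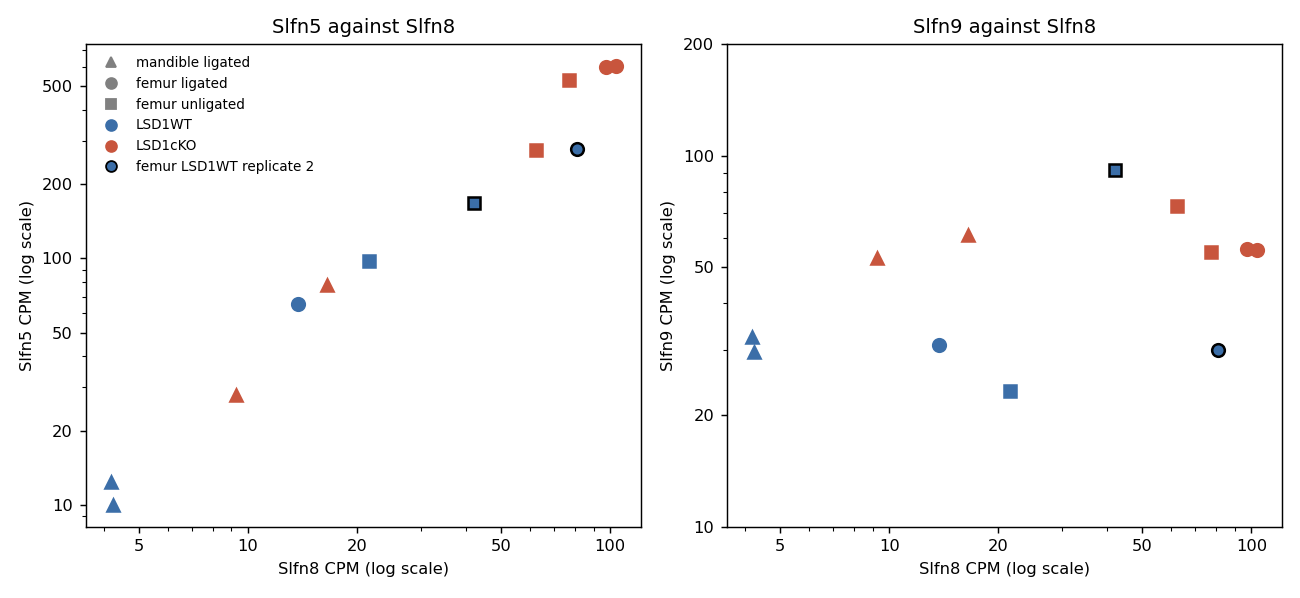
Each point is 1 library, placed by its Slfn8 level and by Slfn5 (left) or Slfn9 (right), in CPM on log axes, with shape for culture, colour for genotype and a black ring for replicate 2 of the femur LSD1WT cultures. Slfn5 rises with Slfn8 along one band (r = 0.989), while Slfn9 stays between 23.2 and 91.5 CPM (r = 0.450).

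The genes most like each member over the 12 libraries, by Pearson r of log2 CPM among all tested genes, differed between members. Slfn5 came with Irgm2 (0.992), an interferon-induced GTPase, Ifit2 (0.992), an interferon-induced RNA-binding protein, and Dtx3l (0.991), a ubiquitin ligase. Slfn8 came with Ptafr (0.996), the receptor of platelet-activating factor, Ifi204 (0.995) and Trim30a (0.995). Slfn1 came with Apol9b (0.969), Isg15 (0.967), a ubiquitin-like modifier, and Parp11 (0.966). For Slfn2 the closest were Mfsd7a (0.986), Ms4a4c (0.980) and Ifi209 (0.979), and for Slfn4 they were Pilra (0.984), an inhibitory receptor of myeloid cells, Gm20559 (0.981) and Gm43197 (0.973). The members that varied least had other company, Slc25a22 (0.978), Ccdc180 (0.954) and Cracr2a (0.934) for Slfn3, and Atp10a (0.935), Slc22a15 (0.928) and Glrx (0.925) for Slfn9. These are the highest of 15425 values for each member and are descriptions.

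The interferon pathway was followed by role from a list of 26 genes, of which 23 were tested. Over the 3 cultures 11 rose in LSD1cKO, 0 fell, and the median was 1.17 on the log2 scale, against -0.06 for all genes, of which 3.00% rose. Of the ligands, Ifna4 and Ifng had 0 counts in all 12 libraries and Ifnb1 had 0 to 1 counts in LSD1WT and 0 to 6 in LSD1cKO. None of the 4 receptor chains passed, with log2 fold changes of -0.37 to 0.18, nor did any of the kinases Jak1, Jak2 and Tyk2, with -0.18 to 0.61. Of the 5 transcription factors tested, 2 rose, and Irf7, which amplifies interferon production, rose by 2.71 on the log2 scale (adjusted p = 0.00662, edgeR's quasi-likelihood test, Benjamini-Hochberg). Both inhibitors of the pathway rose, Usp18 by 2.74 (adjusted p = 0.00646) and Socs1 by 1.17 (adjusted p = 0.0199), in edgeR's quasi-likelihood test. Of the 9 target genes 7 rose, from 2.07 for Ifit3 to 3.00 for the chemokine Cxcl10, while Mx1 and Oas2 had 1.83 and 1.89 and did not pass (adjusted p = 0.0582 and 0.0585, edgeR's quasi-likelihood test). Values of Slfn4 and Slfn1 thus stood above those of every gene of this list, and that of Slfn5 was below those of the 7 targets that rose. Without both femur LSD1WT replicate 2 libraries 21 of the 23 rose, beside 14.4% of all genes, and with DESeq2 14, beside 5.34%.

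**Figure D5:**
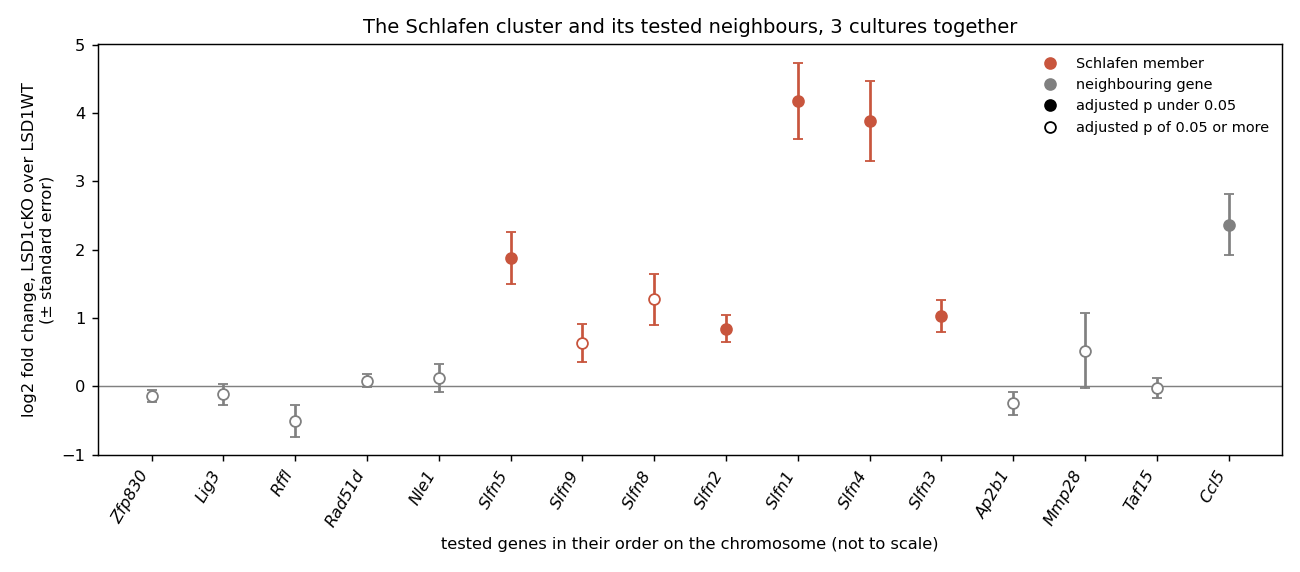
Log2 fold changes of LSD1cKO over LSD1WT over the 3 cultures (points, with standard errors) are drawn for the 7 members (red) and 9 of the 10 nearest tested neighbours (grey) in their order along the chromosome, not to scale. Filled points passed an adjusted p of 0.05. All 7 members lie above 0, and of the neighbours drawn Ccl5 alone passed, at 2.37.

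The members lie side by side on chromosome 11 in the order Slfn5, Slfn9, Slfn8, Slfn2, Slfn1, Slfn4, Slfn3 and Slfn14. The size of the genotype difference did not follow this order: Slfn1 and Slfn4, next to each other, had log2 fold changes of 4.18 and 3.88, while Slfn2 before them and Slfn3 after them had 0.85 and 1.03. Of the 5 nearest tested genes on each side, 1 of 10 rose, Ccl5, a chemokine that attracts T cells and monocytes (2.37, adjusted p = 0.0169, edgeR's quasi-likelihood test, Benjamini-Hochberg). The median of the 10 neighbours was -0.07. The tested gene nearest to the Slfn5 end of the cluster was Nle1, a ribosome assembly factor, which had 0.13 and did not pass.

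Markers of other cells that marrow cultures could hold were compared between genotypes over the 3 cultures. Of the osteoclast list 0 of 10 passed (median log2 fold change -0.32), with sums of 168 to 40886 CPM in LSD1WT and 11539 to 29089 CPM in LSD1cKO. Of the macrophage list 0 of 10 passed (median -0.48), with 2112 to 12715 CPM and 1721 to 4804 CPM. Neutrophil markers summed to 91.8 to 282 CPM and 142 to 307 CPM, and 0 of 9 tested passed (median 0.34). T and NK cell markers, listed because Slfn1 and Slfn2 are expressed in T cells, summed to 0.734 to 18.3 CPM and 1.36 to 14.8 CPM, and Gzma was at 0 in all libraries. Of 2 tested in that list, Lck rose, by 1.60 on the log2 scale (adjusted p = 0.0323, edgeR's quasi-likelihood test, Benjamini-Hochberg). B cell, dendritic and stromal lists had 0 of 3, 0 of 5 and 0 of 3 passing, with medians of 1.59, 0.52 and -2.38 on the log2 scale and sums of at most 9.60, 16.6 and 40.7 CPM. At an unadjusted p under 0.05, 2 B cell, 2 dendritic cell and 1 T and NK cell marker were higher, beside 8.31% of all genes. By the same rule 1 macrophage marker was lower, beside 7.76% of all genes. Erythroid and mast cell markers reached at most 0.446 and 0.351 CPM. Without both femur LSD1WT replicate 2 libraries, all 10 osteoclast markers fell (median -0.92), 5 of 10 macrophage markers rose (median 0.84, turned from -0.48), 1 B cell and 1 T and NK cell marker rose, 1 stromal marker fell and 0 neutrophil or dendritic cell markers passed. In that fit 14.4% of all genes rose and 9.75% fell. With DESeq2 and all libraries, 1 macrophage marker fell, beside 2.76% of all genes. There 1 B cell and 1 T and NK cell marker rose, beside 5.34% of all genes, and 0 passed in the other lists. The part of these cells in the Schlafen values was not tested.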

How the data were processed

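RNA-seq of polyA RNA from 12 marrow cultures was analysed. The authors deposited 1 table of raw read counts per gene. The submitters' processing notes name FastQC, HISAT2 2.1.0, featureCounts, edgeR and build GRCm39, and the strand setting is not given in the sources used here. Each count column was matched to a sample by its library name, and 0 columns were left unmapped.

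From these deposited counts, CPM were computed on library totals (21375805 to 32526751) multiplied by TMM factors. Genes were filtered with filterByExpr (minimum count 10), scaled by TMM and tested with edgeR 4.0.16 (R 4.3.3) by the quasi-likelihood test, with 1 coefficient for each of the 6 conditions and all 12 libraries sharing the spread (biological coefficient of variation 0.419). The effect over the 3 cultures was fitted with culture as a term (0.391). Adjusted p-values are Benjamini-Hochberg values over all 15425 tested genes, with a threshold of 0.05, and the log2 CPM of correlations used a prior count of 2. On simulated counts, 82% of genes changed 4-fold were recovered over the 3 cultures and 27%, 25% and 28% within mandible, ligated femur and unligated femur (15079 genes, 100 changed at that fold). Of genes changed 16-fold, 82%, 74% and 77% were recovered within those cultures. The simulation gave each gene the same mean level in every culture. It held neither site differences nor femur LSD1WT libraries low in osteoclast transcripts, so its recovery need not hold for these data. Alternatives were DESeq2 1.42.0, other scaling and filters, the conflicting library moved to femur, a replicate block, only the compared libraries, and each library left out.

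The text names the 7 members, other Slfn rows, Kdm1a, the 5 nearest tested genes on each side, the 3 genes most correlated with each member, and fixed lists of interferon pathway genes and cell markers. Members and lists were chosen with earlier results of these data known. Promoters came from RefSeq (GRCm38.p6), exon lengths and transcripts from GENCODE vM21. Replicate numbers pair the same mice in the ligated LSD1cKO cultures of mandible and femur, where their deviations correlated with r = 0.026 across genes. Number 1 also stands for the same mouse, 1L, in the ligated LSD1WT cultures of mandible and femur. Between all other cultures the replicate numbers share only a number. Outside the LSD1cKO pair, r was 0.780 for ligated and unligated femur LSD1WT and -0.197 to 0.278 for the rest. The 2 mandible LSD1WT libraries differed by 1.54 times the counting noise, less than any other pair (4.90 to 88.0), and were kept as 2 samples. Protein sequences were not used here, and some named genes are not reported here.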

Additional observations from a re-analysis of the deposited data

Results flagged for a closer look

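In the 6 LSD1WT libraries, the level of 2 members in unligated femur replicate 2 lay farther from the nearest other library than Dixon's 95% limit for 6 values allows. Slfn9 had 91.5 CPM there, against 23.2 to 32.5 CPM in the other 5. Slfn3 had 11.4 CPM, against 5.30 to 7.38 CPM in the other 5. Both came from the library that also had 238 CPM of summed osteoclast markers, and the part of that in these values was not tested. They are 2 of 14 groups examined. By chance the limit flags about 1 in 20 groups whose 6 values come from a single normal distribution. These groups pool different cultures and share their libraries, so that rate need not hold here.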

How the results depend on the processing

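All 7 members kept a log2 fold change above 0 over the 3 cultures under 19 alternatives. Of 1406 values of single members under all alternatives, 68 turned sign, 40 of them with a library left out, and 0 of those that turned were past the threshold. The cause was not tested for any change below. Each number of members is to be read beside the number of all genes passing in the same setting, given in the paragraph after it. With only the compared libraries, far more of all genes passed in mandible and for the LSD1cKO site than as reported. With DESeq2, 0.947%, 1.43% and 0.807% of all genes passed in mandible, ligated femur and unligated femur. For the site in LSD1WT and LSD1cKO, 8.73% and 5.58% did.

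The number of members past the threshold over the 3 cultures (5 as reported) was 3 with the conflicting library as femur, 3 with a replicate block by number, and 2 to 5 without single libraries. In mandible it was 3 without both femur LSD1WT number 2 libraries, an alternative chosen after seeing the data, and 6 with only the compared libraries (0 as reported, as below). In ligated femur it was 4 with DESeq2, 2 without a filter beyond 1 count, 6 without the number 2 libraries and 0 to 1 without single libraries. In unligated femur it was 2, 1 and 4 with the first 3 of these. The LSD1WT site comparison gave 4 with DESeq2, 4 without the filter, 1 without the number 2 libraries and 0 to 4 without single libraries. The LSD1cKO site comparison gave 5, 5, 6 and 0 to 4, and 6 with only the compared libraries. In both site comparisons 4 were called without ligated femur LSD1WT replicate 1, and in LSD1cKO 4 also without replicate 2 of that culture.

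Of all genes, 544 passed over the 3 cultures, 1248 with DESeq2, 348 with the conflicting library as femur, 3867 without the number 2 libraries and 298 to 653 without single libraries. In ligated femur 1 passed, with DESeq2 217, RLE 9, the conflicting library as femur 16, a mean count of 10 10, no filter 93, no number 2 libraries 1497, only the compared libraries 0 and single libraries left out 0 to 44. In unligated femur 0 passed, with DESeq2 122, no filter 24, no number 2 libraries 396 and single libraries left out 0 to 16. In mandible 0 passed, with DESeq2 146, no filter 45, no number 2 libraries 936, only the compared libraries 5434 and single libraries left out 0 to 24. For the site in LSD1WT 0 passed, with DESeq2 1190, no filter 821, no number 2 libraries 144 and single libraries left out 0 to 3759. For the site in LSD1cKO 0 passed, with DESeq2 810, no filter 329, no number 2 libraries 3466, only the compared libraries 6101 and single libraries left out 0 to 688. For the ligature 0 passed, with DESeq2 2 in LSD1WT and 1 in LSD1cKO, no filter 1 and single libraries left out 0 to 31 in LSD1WT. The difference of the genotype effect between sites gave 1 gene with DESeq2.

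The replicate block by mouse pairs mandible and femur cultures of the same mice. It gave 22 genes and 0 members for the site in LSD1cKO and changed no other call. Apart from the mice that gave both sites, cultures in the block by replicate number share only a number. That block gave 403 genes over the 3 cultures, where Slfn1, Slfn4 and Slfn5 passed and Slfn2 and Slfn3 did not, and 0 members within each culture. It turned Slfn4 for the ligature in LSD1cKO to 0.030 and, for the genotype effect in mandible minus ligated femur, Slfn9 to -0.16, Slfn8 to -0.23 and Slfn5 to -0.10, and for that in ligated minus unligated femur Slfn8 to 0.10.

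Other values that turned sign were Slfn9 for the site in LSD1WT (-0.048 with the conflicting library as femur, -0.063 with the mouse block) and in LSD1cKO (-0.00104 with a mean count of 10). For the ligature in LSD1WT they were Slfn2 (-0.00307) and Slfn5 (-0.18) with the conflicting library as femur and, without the number 2 libraries, Slfn2 (-0.43), Slfn3 (0.058), Slfn5 (-0.63), Slfn8 (-0.71) and Slfn9 (0.36). For the genotype effect in mandible minus ligated femur they were Slfn9 with DESeq2 (-0.040), RLE (-0.040), a mean count of 10 (-0.065), only the compared libraries (-0.022) and no number 2 libraries (-0.026), Slfn8 with the conflicting library as femur (-0.064) and no number 2 libraries (-1.31), and Slfn5 with the latter (-1.01). For that in ligated minus unligated femur they were Slfn8 with DESeq2 (0.013), RLE (0.014), the conflicting library as femur (0.52) and no number 2 libraries (1.26), and Slfn9 with the latter (-0.53).

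Without single libraries Slfn9 ran from -0.44 to 1.47 for the genotype in unligated femur, from -0.0024 to 0.13 for the site in LSD1WT and from -0.093 to 0.10 in LSD1cKO. The ligature in LSD1WT gave Slfn1 -0.86 to 1.62, Slfn2 -0.27 to 0.58, Slfn3 -0.85 to 0.20, Slfn5 -1.02 to 1.05, Slfn8 -1.21 to 1.33 and Slfn9 -1.58 to 0.34, and in LSD1cKO Slfn4 -1.33 to 2.28 and Slfn9 -0.35 to 0.044. The genotype effect in mandible minus ligated femur gave Slfn1 -3.80 to 0.40, Slfn5 -0.95 to 1.08, Slfn8 -1.26 to 1.25 and Slfn9 -0.15 to 0.043, and that in ligated minus unligated femur Slfn1 -0.11 to 2.36, Slfn4 -0.77 to 2.86, Slfn5 -0.45 to 1.59, Slfn8 -0.78 to 1.74 and Slfn9 -0.51 to 1.41.

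With 2 libraries per condition the absence of a call within a culture does not show equal levels. A 4-fold change of a simulated gene was found in 25% to 28% of cases there. That simulation held no site differences, so its recovery need not hold for these libraries. Mandible LSD1WT levels of Slfn1 and Slfn4 rest on 0 to 2 counts per library. A setting that leaves out a library leaves 1 in its condition, which is then assumed to vary like the others.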
